A study of Mus musculus with 6 samples.

Results

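Introns of 50 kb and longer were examined in 6 RNA sequencing libraries from mouse dorsal root ganglia. An intron was taken as a member when its end minus its start was at least 50000 bases, when it was unique by chromosome, start and end, and when no exon interval of the deposited files lay in it on either strand. Of 240179 unique introns in the files, 4854 reached that length, and 1539 of these (31.7%) held no such exon and formed the set. They belonged to 1044 genes by the GENCODE M21 annotation, and 8 introns had no gene there. The rule used coordinates only and no measured value.

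The ganglia came from wild-type C57BL/6J embryos at 14.5 days post coitum (Theiler stage TS22, sex unknown). Tissue of 18 embryos was pooled and lysed, and 1 stock of total RNA was diluted for all libraries. The high_volume group took the RNA into reverse transcription in 9 µl with the HV version of a SMARTer low-input kit, and the low_volume group took it in 1 µl with another kit of that family, so volume and kit cannot be told apart. Each group had 1 library from 3 ng, 1 from 10 ng and 1 from 30 ng of RNA, and these are replicates 2, 1 and 3 of the group. Since 1 RNA pool fed every library, the SDs and p-values below measure technical variation and carry no information on variation between animals. The libraries held between about 15500000 and 33900000 tags, where a tag is a read counted on a feature. The tissue label was checked against its markers. The 8 sensory neuron genes had a summed RPKM of 8786 to 12126, and the 5 glial genes 894 to 1038. The 6 spinal cord genes summed to 0.23 to 1.73, with Mnx1, Lhx3, Nkx2-2 and Olig2 under a mean of 0.1. Erythroid genes (3870 to 4755), fibroblast genes (263 to 297) and macrophage genes (126 to 162) were present as well. So were endothelial genes (40.9 to 53.7) and skeletal muscle genes (36.1 to 41.9), with 4 of 5 muscle genes at a mean of 1 or more. In such bulk RNA, fewer cells of a type and less RNA per cell cannot be told apart.

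An intron is transcribed with the rest of its gene and cut out of the precursor by the spliceosome, usually before the RNA leaves the nucleus. A polymerase needs a long time to cross an intron of this size, so that a long intron exists for a while as part of a growing precursor. In vertebrates such introns are common in genes of neurons, above all in those of cell adhesion, ion channels and axon guidance. Libraries primed on poly(A) tails are made for mature mRNA, and intron tags are a small part of them.

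The exon bases on either side of 9 of these introns are printed here, 5′ to 3′ on the strand of the gene, to show what the mature coding sequence reads once the intron is gone. The capitals mark the last 3 bases of the upstream exon and the first 3 of the downstream exon, and the intron was removed between them. The sequences are those of GENCODE M21 transcripts on GRCm38. They were chosen among the introns named below for high tags, great length or a low ratio to the exons.
Camk1d: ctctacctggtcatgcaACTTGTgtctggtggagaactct
Prkg1: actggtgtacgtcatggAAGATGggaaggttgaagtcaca
Tmeff2: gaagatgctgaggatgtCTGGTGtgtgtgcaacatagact
Efna5: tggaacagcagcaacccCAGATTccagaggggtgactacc
Nrxn3: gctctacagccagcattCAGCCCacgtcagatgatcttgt
Cadm1: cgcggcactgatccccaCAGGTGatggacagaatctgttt
Lsamp: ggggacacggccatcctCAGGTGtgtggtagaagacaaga
Kcnd2: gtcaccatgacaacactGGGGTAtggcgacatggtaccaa
Rtn1: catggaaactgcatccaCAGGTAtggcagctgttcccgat

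The introns behind these junctions lay at chr2:5362128-5445069 for Camk1d, chr19:31302400-31585566 for Prkg1 and chr1:51071565-51132142 for Tmeff2. Those of Efna5, Nrxn3 and Cadm1 lay at chr17:62651135-62881005, chr12:90204819-90283571 and chr9:47530506-47787970. Those of Lsamp, Kcnd2 and Rtn1 lay at chr16:41533532-41888914, chr6:21217414-21714134 and chr12:72308930-72408310. The genes Camk1d, Prkg1, Efna5 and Rtn1 are on the minus strand and the other five on the plus strand. The letters AG before the junction and a G after it are the common exon side of a splice site, and Lsamp, Cadm1 and Rtn1 showed both. Over the 1017 long introns whose junction was found in an M21 transcript, 26.1% read AG before and G after, against 27.2% of 17518 introns of 5 kb to under 50 kb. AG alone stood before 56.2% of the long and 57.6% of the shorter introns. Coding sequence lay on both sides of 654 long introns (64.3%) and of 12850 shorter ones (73.4%). Of the coding long introns 39.3% fell between codons (phase 0), 41.9% after the first codon base (phase 1) and 18.8% after the second (phase 2). The shares for shorter introns were 43.4%, 35.3% and 21.3%. These are descriptions of annotation, and no test was made on them. The bases inside the introns were not analysed here.

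The set had a median length of 74.0 kb and ran from 50.2 kb to 594 kb, with 431 introns of 100 kb or more and 60 of 200 kb or more. Just inside the limit lay introns of Glra3 (50151 bases), Agbl1 (50154) and Pter (50170), at 0.000997, 0.000475 and 0.0106 RPKM (the tags per kb of a feature, scaled to the total tags of the library). Just outside lay introns of Tex16 (49947 bases), Gvin1 (49960) and Xrcc4 (49963), at 0.00100, 0 and 0.0117. Protein-coding genes held 1431 of the introns, lincRNA genes 55 and genes of other types 45, and 8 had no gene match in M21. In the transcript used for numbering, 575 (37.4%) were the first intron and 148 (9.62%) the last, against 25.0% and 12.3% of 24573 exon-free introns of 5 kb to under 50 kb. In 755 genes there was 1 such intron, in 289 genes 2 or more, and in 23 genes 5 or more. Cntnap2, an adhesion protein that clusters potassium channels along axons, had the largest number with 10 introns over 1495 kb, followed by the contactin gene Cntn4 with 8. The M21 annotation placed an exon in 597 of the introns, of the same gene in 337 and of another gene in 389, although the deposited exon intervals did not. RefSeq placed 7 miRNA hairpins in them, among them Mir6352 in Epha4, Mir6346 in Gli2 and Mir21b in Egfem1.

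The density of a long intron is given as its RPKM. The median intron RPKM over the 1539 introns was 0.0238 (mean of 6 libraries), with 10% of introns below 0.00127 and 10% above 0.121. A mean of 10 or more tags per library was found for 1253 introns and of 100 or more for 480, and 44 had no tag in any library. The 2 introns with most tags per kb held 7.69% of all tags of the set, and the first 10 held 15.3%. Introns with an M21 exon inside had a median of 0.0319 and those without had 0.0197. Of the 50 introns with most tags per kb, 29 (58%) held an M21 exon, against 38.8% of the whole set.

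The leading intron was intron 3 of 10 of Camk1d, a calcium and calmodulin-dependent kinase, 82.9 kb long and free of M21 exons. It gave 7.37, 5.39 and 6.68 intron RPKM in the high-volume libraries of 3, 10 and 30 ng, and 3.96, 4.36 and 3.99 in the low-volume ones. The high-volume values were all above the low-volume values. The exons of Camk1d were at an RPKM of only 0.552 ± 0.177 (SD, n = 6), so the intron carried more tags per kb than the exons did. The next intron was intron 1 of 4 of Filip1l (chr16:57353459-57506598), a gene for a filamin-binding protein. It gave 2.56, 1.86 and 2.30 in the high-volume and 1.69, 1.21 and 1.10 in the low-volume libraries, again without overlap. M21 places an exon of Cmss1 in the Filip1l intron. Filip1l exons were at an RPKM of 0.736 ± 0.472 and those of Cmss1 at 29.7 ± 5.69 (SD, n = 3) in high and 32.9 ± 4.10 in low volume.

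**Figure D1:**
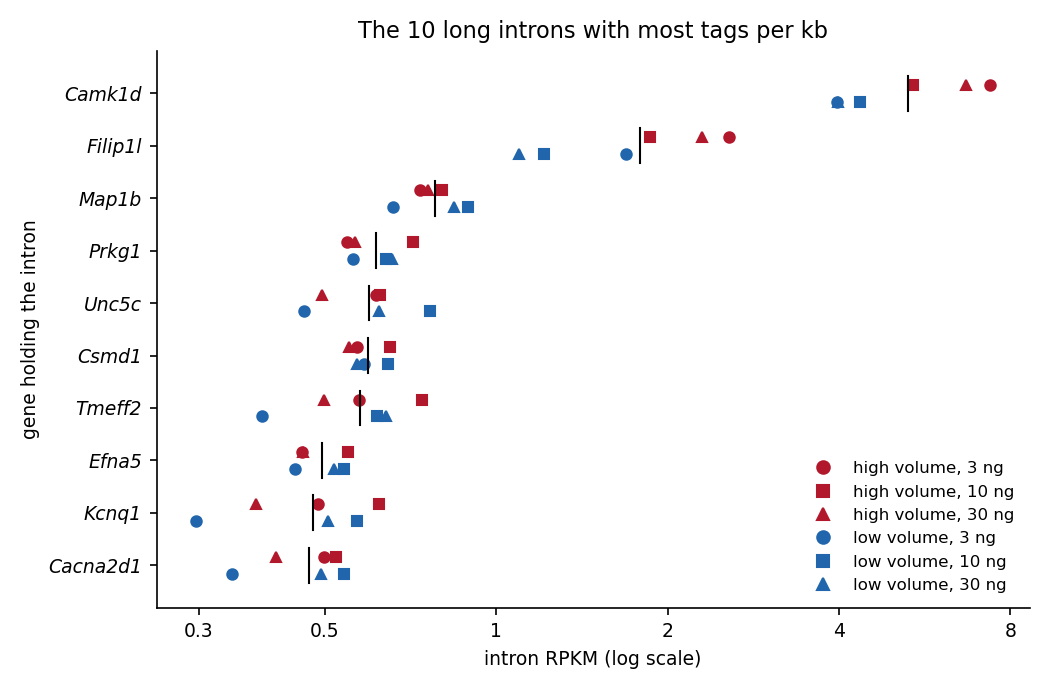
Intron RPKM (log axis) in each of the 6 libraries for the 10 long introns with most tags. Red marks are high-volume and blue marks low-volume libraries, circles 3 ng, squares 10 ng and triangles 30 ng, and the black bar is the mean of 6. Camk1d at a mean of 5.29 and Filip1l at 1.79 stand to the right of the others, and only in these 2 of the 10 are all red marks above all blue ones.

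The other eight of the first 10 lay between 0.468 and 0.781 intron RPKM. Map1b, which encodes a microtubule-associated protein of growing axons, gave 0.735, 0.802 and 0.758 in high volume and 0.658, 0.891 and 0.842 in low volume, in an intron (chr13:99444297-99508107) where M21 has further Map1b exons. Prkg1, the cGMP-dependent kinase that sensory axons need to branch in the spinal cord, gave 0.547, 0.714 and 0.565 and then 0.560, 0.640 and 0.655 in intron 2 of 17, 283 kb long and free of M21 exons. In both genes the volumes overlapped, and the spread between libraries was small beside the level. Unc5c, a netrin receptor, was at 0.596 ± 0.109 (SD, n = 6) in a 194 kb intron with an M21 exon of its own gene. Csmd1, a large membrane protein with complement-control domains, was at 0.595 ± 0.0424 in intron 1 of the transcript used, and Tmeff2, a membrane protein with follistatin-like domains, at 0.576 ± 0.122 in intron 5 of 9. Efna5, the ligand ephrin-A5, was at 0.494 ± 0.0472, and Cacna2d1, the calcium channel subunit that gabapentin binds in sensory neurons, at 0.468 ± 0.0758. The Cacna2d1 intron also holds an M21 exon of its own gene. Kcnq1, a potassium channel gene of an imprinted region, was at 0.477 ± 0.121 in an intron (chr7:143195405-143261255) that holds an M21 exon of the antisense RNA Kcnq1ot1. Kcnq1 exons were at an RPKM of 0.258 ± 0.220 and Csmd1 exons at 0.29 ± 0.17, in both genes below the density of the intron. Between Unc5c, Csmd1 and Tmeff2, and between Efna5, Kcnq1 and Cacna2d1, the means lay within 1 SD of each other.

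To relate intron to gene, the tags per kb of the intron were divided by the exon tags per kb of the gene, for the 1214 introns with a mean of 10 or more tags in both. The median ratio was 1.87%, with 10% of introns below 0.248% and 10% above 9.66%. In 5 introns the ratio was above 1. The exon value comes from the transcript of the gene with most tags, and that transcript spanned the intron in 1166 of 1214 cases (96.0%). Intron density followed the exon level only in part. Genes with an exon RPKM under 1 had a median of 0.0198 intron RPKM in 393 introns, those from 1 to 10 had 0.0449 in 677, those from 10 to 100 had 0.0627 in 138, and the 6 introns of genes above 100 had 0.0917. Over the same classes the median ratio was 4.97%, 1.50%, 0.333% and 0.0741%. Across the 1214 introns Spearman's rho of density with exon RPKM was 0.40, and that of density with length was 0.09. The rho of ratio with exon RPKM was -0.66, but the ratio has the exon value as its denominator. The introns share libraries, and introns of a gene share its exon value, so these are descriptions without a test.

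**Figure D2:**
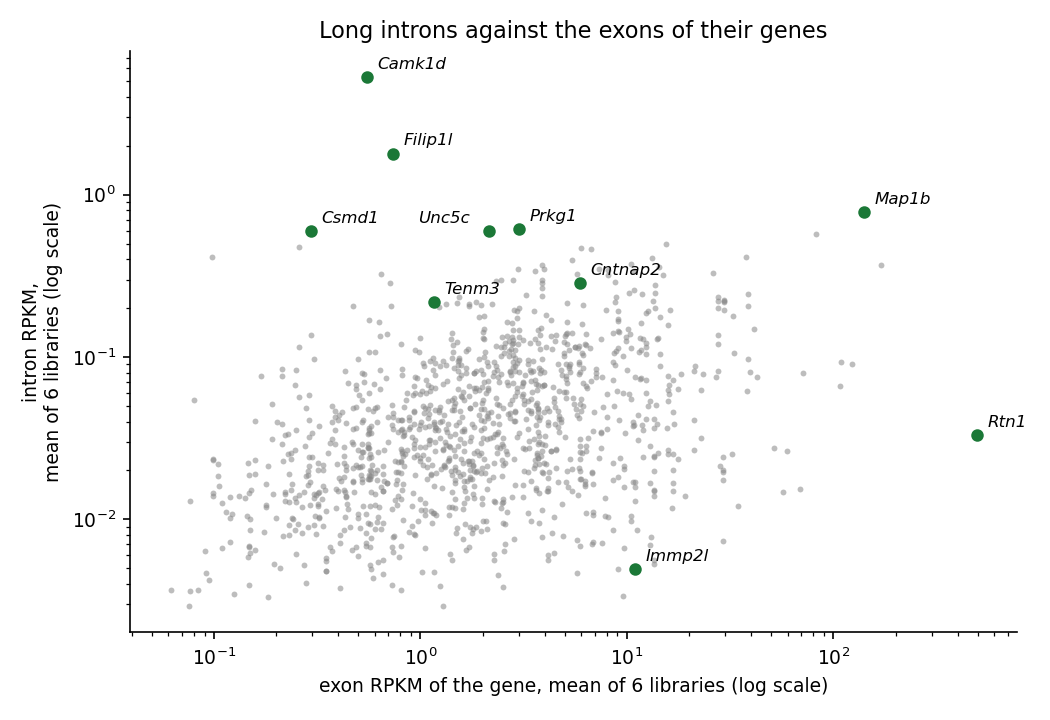
Mean RPKM of 1214 long introns against the exon RPKM of their genes, both log axes, each point 1 intron and green points the named ones. Density spreads widely at a given exon level, with Camk1d (exon RPKM 0.552) far above the bulk of the points and Rtn1 (exon RPKM 494) far to the right at 0.0329 intron RPKM, above the median of 0.0238 of the set.

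Among the 561 introns with a mean of 50 or more tags in genes of exon RPKM 1 or more, Unc5c had the highest ratio at 27.8% and Prkg1 followed at 20.9%. Tenm3, a teneurin that matches synaptic partners, had 19.3%, from 0.207, 0.242 and 0.234 intron RPKM in high volume and 0.118, 0.254 and 0.249 in low volume. The low value was the 3 ng low-volume library. Ccser1 had 18.0% in its last intron, 423 kb long, and the protocadherin gene Pcdh17 15.7%. The others of the first 10 were Hivep2, a zinc finger transcription factor (14.9%), Enah, an actin regulator of growth cones (14.3%), the contactin gene Cntn5 (13.3%), Ankrd28, a phosphatase subunit (13.3%), and Peak1, a pseudokinase of the cytoskeleton (12.6%). Enah showed how far single libraries can stray, with 0.0931 in the high-volume and 0.413 in the low-volume library of 3 ng, while the other four lay between 0.173 and 0.222. Of these 10 introns, Prkg1, Tenm3 and Peak1 held no M21 exon, whereas Unc5c, Ccser1, Pcdh17, Hivep2, Enah and Ankrd28 held one of their own gene.

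At the other end, 145 introns lay in named genes with an exon RPKM of 10 or more, and the 10 with the lowest ratios are named here. Rtn1, a reticulon of the endoplasmic reticulum that is abundant in neurons, had an exon RPKM of 494 ± 15.9 and a ratio of 0.00433%. Its intron had 23, 109 and 148 tags in high volume and 2, 126 and 142 in low volume, and the Rtn1 transcript with most tags does not span that intron. It was the only one of the 51 named introns for which this was so. Eif2ak1, the heme-regulated kinase of translation initiation, had 0 to 6 tags in its 53.9 kb first intron beside an exon RPKM of 18.9 ± 2.27. Chchd6, a component of mitochondrial cristae, had a ratio of 0.0129%, Ndufaf2, an assembly factor of respiratory complex I, 0.0150%, Clybl, a mitochondrial lyase, 0.0196%, and Immp2l, a peptidase of the inner mitochondrial membrane, 0.0314%. Eipr1, Prkag2 (a subunit of the AMP-activated kinase), Trappc9 and Cpq lay between 0.0158% and 0.0273%. For Prkag2 the tags were 0, 21 and 10 in high volume and 0, 19 and 15 in low volume. In each of these 10 introns 1 or both 3 ng libraries had the fewest tags or shared the fewest, and a zero enters the ratio through the pseudocount of 0.5 tags, so these percentages are approximate.

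The 5 longest introns differed in density. Intron 1 of Cntnap2, at 594 kb the longest, gave 0.252, 0.352 and 0.214 intron RPKM in high volume and 0.217, 0.357 and 0.323 in low volume, a mean of 0.286 ± 0.0660 (SD, n = 6). Intron 1 of Lsamp, an adhesion protein of neurites, was at the same level with 0.298 ± 0.0406 over 355 kb. The Ccser1 intron was at 0.213 ± 0.0414. The first introns of Kcnd2, an A-type potassium channel, and of Dcc, the netrin receptor, were lower at 0.0675 ± 0.0176 over 497 kb and 0.0669 ± 0.0103 over 395 kb. Exon RPKM was 5.93 for Cntnap2, 2.46 for Lsamp, 1.32 for Ccser1, 0.486 for Kcnd2 and 0.248 for Dcc, the same order but for Cntnap2 and Lsamp.

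How far the long introns of 1 gene differed in density varied between genes. Among the 23 genes with 5 or more, the highest was 1.68 times the lowest in Lingo2, 2.48 times in Erc2 and 223 times in Nrxn3. Nrxn3 and Cntnap2 had the largest such differences of these genes. In Cntnap2 the density was 0.286 in the first long intron, 0.0197 in the second and 0.0803 ± 0.0175 in the third. The other seven ranged from 0.00680 to 0.0510, so the highest was 42.0 times the lowest. M21 lists exons of several noncoding RNAs in the first intron. It also has exons in the third, the seventh (0.0281) and the eighth (0.0177), and none in the other introns (0.00680 to 0.0510). In Nrxn3, which encodes a presynaptic adhesion protein with long (alpha) and short (beta) forms from separate promoters, the first 3 long introns were low and the last 3 high. The first 3 were at 0.00164 ± 0.00203, 0.0195 ± 0.00985 and 0.00775 ± 0.00862 intron RPKM (SD, n = 6). The last 3 were at 0.268 ± 0.0632, 0.298 ± 0.0385 and 0.367 ± 0.0927. Every library showed the step. The highest value among the first 3 introns was 0.0325 and the lowest among the last 3 was 0.169. Long intron 4 of Nrxn3 is intron 1 of a deposited transcript with 6 introns, so an annotated shorter form starts before it. Whether promoter use bears on the step was not tested. M21 has exons in long introns 1, 3 and 5 of Nrxn3 (0.00164, 0.00775 and 0.298). It has none in long introns 2, 4 and 6 (0.0195, 0.268 and 0.367). In Prkg1 the second long intron stood at 0.614 ± 0.0665, above 0.200 ± 0.0538 in the first and 0.0808 to 0.146 in the other three. In Cntn4 the 8 long introns lay closer together, from 0.0239 to 0.0669.

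**Figure D3:**
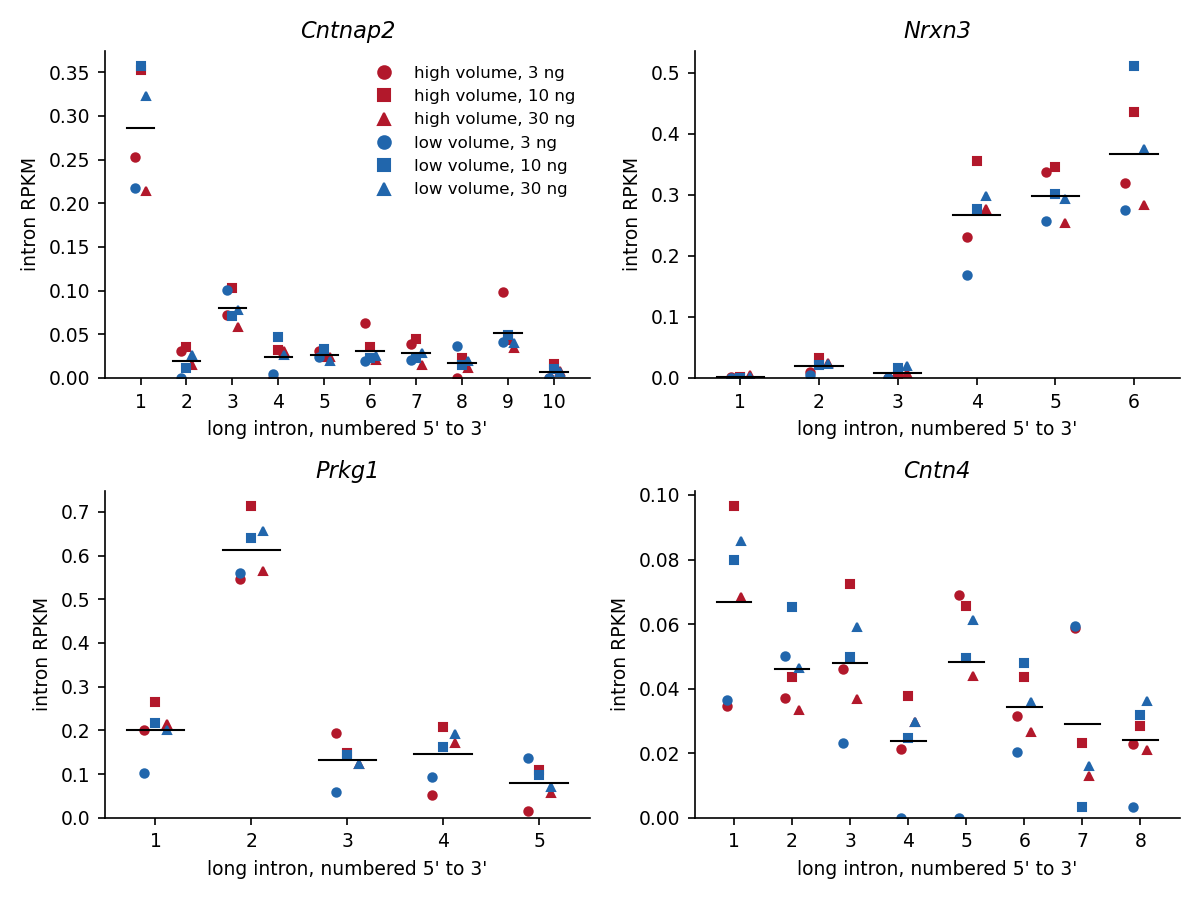
Intron RPKM in the long introns of Cntnap2, Nrxn3, Prkg1 and Cntn4, numbered 5′ to 3′ along the gene, with 6 libraries as marks (red high volume, blue low volume, circles 3 ng, squares 10 ng, triangles 30 ng) and the mean as a bar. The first Cntnap2 intron (0.286) and the last 3 Nrxn3 introns (0.268 to 0.367) stand above the rest of their genes. Introns 4 and 5 of Cntn4 are at 0 in the low-volume 3 ng library, and Cntnap2 and Nrxn3 also have zeros at 3 ng.

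Transcription runs 5′ to 3′, and reads in precursors can then be denser upstream. In the 289 genes with 2 or more long introns, the first was compared with the last in each library. The median log2 difference, upstream minus downstream, was 0.05 ± 0.03 (SD, n = 6 libraries) and positive in 6 of 6 libraries, by an exact sign-flip test with p = 0.03125, the lowest value open to 6 libraries. The size was small. By the mean intron RPKM without a pseudocount, the upstream intron was higher in 143 of 289 genes and lower in 144, and 2 pairs had no tag. It was higher in all 6 libraries in 53 genes and lower in all 6 in 41. With pairs of a mean of 50 or more tags the difference was 0.23 (exact p = 0.03125). Without introns that hold an M21 exon it was 0.10 (exact p = 0.0625), which missed the threshold.

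**Figure D4:**
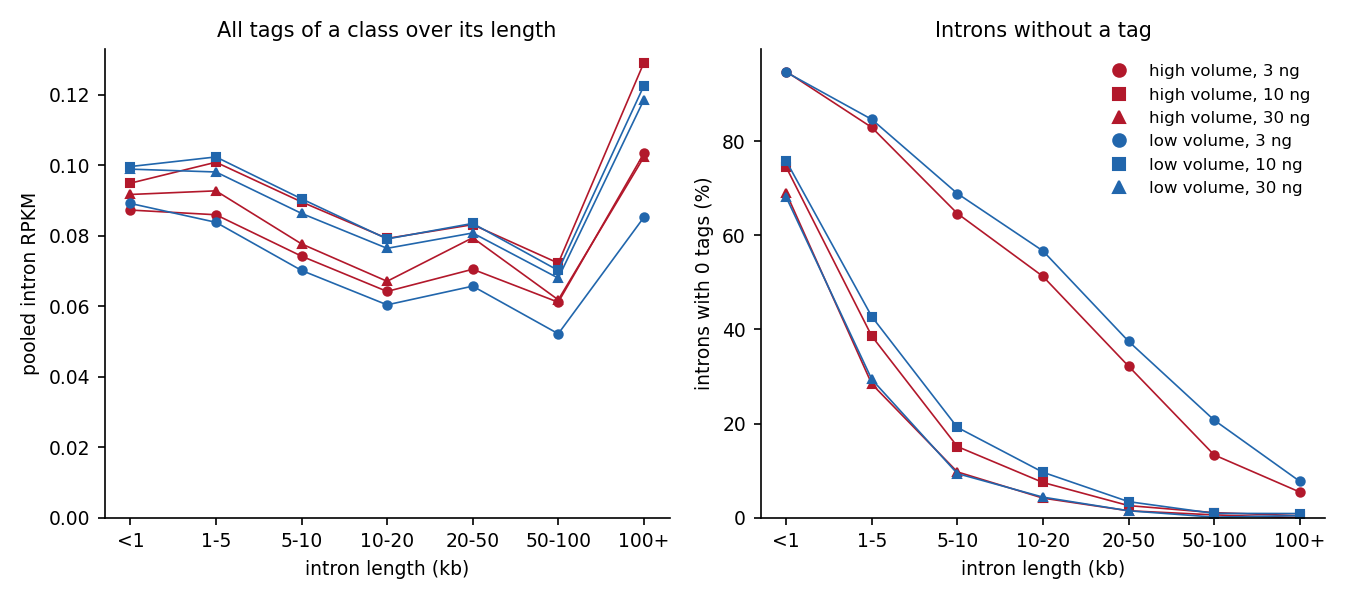
Exon-free introns of genes with exon RPKM of 1 or more, by length class, in each of 6 libraries (red high volume, blue low volume, circles 3 ng, squares 10 ng, triangles 30 ng). Left, all tags of a class over its summed length, lowest from 50 to 100 kb (mean 0.0643), with the highest mean at 100 kb and more (0.110). In the low-volume 3 ng library the class under 1 kb was highest, at 0.0892 against 0.0852 at 100 kb and more. Right, the percent of introns without a tag, at 0.157 to 20.8% from 50 to 100 kb and higher in every shorter class in the 3 ng libraries.

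Whether long introns held more tags for their gene than shorter ones depended on how introns were admitted. With a mean of 10 or more tags in intron and exon, the median log2 ratio of 1214 long introns exceeded that of 7916 introns of 5 kb to under 50 kb by 0.36 ± 0.44 (SD, n = 6). The difference was positive in 6 of 6 libraries (exact sign-flip p = 0.03125). It was 0.73 and 1.08 in the 3 ng libraries and between 0.05 and 0.19 in the other four. With a minimum of 50 tags it turned to -0.45 (exact p = 0.03125). A minimum count of tags admits a short intron only at a high density. Introns of 5 to 10 kb had a pooled density of 0.170 intron RPKM under the minimum of 10 tags and of 0.0814 under a filter on the exons alone. With that filter (exon RPKM of 1 or more, 855 long and 13619 shorter introns) the difference of the medians was 2.04 and 1.82 in the 3 ng libraries and 0.55 to 0.83 in the other four. At 3 ng 64.6 and 68.9% of the introns of 5 to 10 kb and 51.3 and 56.7% of those of 10 to 20 kb had no tag, so the first 2 values rest on the pseudocount. The pooled density of those long introns exceeded that of the shorter ones by 0.14 ± 0.07 on the log2 scale (exact p = 0.03125), and by 0.02 (exact p = 0.5) when introns with an M21 exon were left out. Camk1d and Filip1l are not in the pooled values, since their exons are below the filter. The 219 introns of 100 kb or more had a pooled density of 0.110 ± 0.0162 intron RPKM, and the 636 of 50 to 100 kb had 0.0643 ± 0.00739.

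Gene groups are described by their long introns, beside a median density of 0.0238 and a median ratio of 1.87% over the whole set. The lists overlap, and none of them was tested. The 13 genes for RNA-binding and splicing regulators had 21 introns with a median density of 0.0745 but a median ratio of 0.705%, beside a median exon RPKM of 7.91. They were led by Rbms3 with 38.6 ± 4.53 exon RPKM and an intron RPKM of 0.547 summed over 3 introns, and by the splicing regulator gene Khdrbs2. The 42 transcription factor and cofactor genes had 67 introns at a median of 0.0471 and a ratio of 4.12%, with Ldb2, a cofactor of LIM-homeodomain factors, at 0.661 summed over 3 introns and the E protein gene Tcf12 at 0.594 over 2. The 19 axon guidance genes had 29 introns with a median ratio of 3.90%, led by the semaphorin gene Sema6d (0.663 over 2 introns) and Unc5c. Transcription factor and axon guidance genes had ratios above that of the set, and RNA-binding genes one below it. Introns in any list had 2.47% and those in no list 1.50%. The ratio has the exon value as its denominator, and the median exon RPKM over all genes of the set was 1.36.

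The 67 adhesion and synapse genes held 171 long introns, the largest group, with a median density of 0.0343 and a ratio of 2.84%. Nrxn3 summed to 0.962 over 6 introns, and Ctnna2, the neuronal alpha-catenin, to 0.761 over 5. The list of ion channels, which also holds transmitter receptors that are no channels, had 56 genes with 98 introns at 0.0206 and 3.65%. It was led by Cacna2d1 (0.760 over 2) and by Grm7 (0.730 over 5), a metabotropic glutamate receptor that is coupled to G proteins. For 44 kinase, phosphodiesterase and GTPase regulator genes the 69 introns had 0.0209 and 1.50%, led by Camk1d and Prkg1. The 45 cytoskeleton and trafficking genes had 85 introns at 0.0389 and 1.48%, led by Map1b and by Syt1, the calcium sensor of synaptic vesicles (0.726 over 3). The 17 large genes at common fragile sites had 59 introns at 0.0137 and 1.66%, led by Csmd1 and Cntnap2. Of the genes with recursive splice sites described in vertebrates, 7 had 9 introns, with a median of 0.0779 and a ratio of 1.35%. Ncam1 led them with 0.331 in intron 1 (229 kb), and Cadm1 followed with 0.178 ± 0.0188 in its first intron, 257 kb long.

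The list of glial and neural crest genes had 6 genes with 19 introns at a median of 0.0209 and a ratio of 4.97%. It was led by the glypican gene Gpc6 (0.395 over 4 introns), also in the matrix list, and by Nrg1, the neuregulin that axons present to Schwann cells, so the list does not show which cells the tags came from. In the Nrg1 intron, the values were 0.444, 0.351 and 0.317 in high volume and 0.174, 0.292 and 0.330 in low volume, and the groups overlapped. The 13 extracellular matrix and vessel genes had 21 introns at 0.0821 and 1.94%, led by Thsd7b with 0.676 over 4 introns and Gpc6.

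The 2 volumes were then compared over the whole set. Assigned tags were the exon tags of each gene's transcript with most tags plus the tags of non-overlapping exon-free introns of any length. The long introns of the set held 0.920, 1.05 and 0.895% of them in the high-volume libraries of 3, 10 and 30 ng. In the low-volume ones they held 0.733, 0.984 and 0.939%. The lowest value was the low-volume 3 ng library, and the groups overlapped. The difference of 0.957 ± 0.0859 and 0.885 ± 0.134% (SD, n = 3 each) was 0.0713 percentage points with an exact permutation p of 0.6, where 3 against 3 libraries cannot go below 0.1. Without the low-volume 3 ng library it was -0.0049. The median ratio to the exons was 1.67, 2.44 and 2.17% in high and 1.33, 1.96 and 2.13% in low volume. On the log2 scale the volumes differed by 0.22 (exact permutation p = 0.5), and by 0.02 without the low-volume 3 ng and 0.10 without the high-volume 10 ng library.

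In a single table of genes and exon-free introns, edgeR's quasi-likelihood test with input as a covariate called 1 of 32242 features (0.0031%) between the volumes, the gene Gm42418. Of the 1256 long introns tested it called 0, with 20 (1.59%) at an unadjusted p under 0.05 against 1158 (3.59%) of all features, and DESeq2 on the same features called 2 of them. By log2 input it called 0 of 32242 features (0%), with 57 long introns (4.54%) and 1709 of all features (5.30%) at an unadjusted p under 0.05, and DESeq2 called 1 long intron. The median log2 difference of high against low volume was 0.25 over the long introns, 0.18 over shorter introns and 0.02 over genes, and 837 of the 1256 were positive. With scaling factors from the introns these medians were 0.10, 0.03 and -0.14, and 709 were positive. Single libraries moved the medians widely. That of the long introns was 0.04 without the low-volume 3 ng library and 0.07 without the high-volume 10 ng library, and 0.48 and 0.49 without the low-volume 10 ng and the high-volume 30 ng library. That of the shorter introns ran from -0.41 without the high-volume to 0.89 without the low-volume 10 ng library. The limma test on the intron to exon ratio called 0 of 15308 introns (0%) and 0 of 1214 long ones. Of the long ones 98 (8.07%) had an unadjusted p under 0.05, against 554 (3.62%) of all introns in that test. These shares depended on the setting. With the inputs as blocks they were 1.07% and 1.10%, and with a mean of 50 or more tags 3.15% and 2.65%. With a pseudocount of 2 they were 8.65% and 4.90%, and with exon tags as an offset in edgeR 1.89% and 0.60%. In every gene list the number of long introns called by edgeR was 0 for volume and 0 for input.

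The introns with the smallest p by volume were those of Camk1d, Filip1l and Rbms3. The log2 difference of Camk1d was 0.81 with an edgeR adjusted p of 0.494, and that of Filip1l was 0.92 with 0.463. Neither passed the threshold, and both were higher in 3 of 3 high-volume libraries than in any low-volume library. They are the 2 long introns that DESeq2 called, with 139 of 32242 features called in all (0.431%), at adjusted p of 1.66e-05 for Camk1d and 5.43e-06 for Filip1l. They are also the 2 that edgeR called in the 10 and 30 ng libraries alone, with 175 of 36398 features called (0.481%), at log2 differences of 0.65 (adjusted p = 0.0126) and 0.97 (adjusted p = 0.00186). Without a filter on low counts edgeR called 155 of 122569 features (0.126%), and the long introns among them were again this pair, at adjusted p of 5.70e-16 and 4.39e-14. Over the other alternatives the edgeR adjusted p of Camk1d ran from 0.198 to 0.9999 and that of Filip1l over the same range. Rbms3 had 0.56 with an edgeR adjusted p of 0.996.

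Gm42418 had an exon RPKM of 52031, 39799 and 45902 in high volume and 16170, 17826 and 17664 in low volume, 2.67 times as much in the former. Camk1d and Filip1l introns had 1.58 and 1.68 times as much. Lars2, the mitochondrial leucyl-tRNA synthetase gene, had 4432 ± 533 and 3794 ± 399 (SD, n = 3). These genes were set beside the introns after their values were seen. Exons of Camk1d itself had 0.213, 0.600 and 0.591 RPKM in high and 0.535, 0.677 and 0.698 in low volume, and those of Filip1l 1.65, 0.547 and 0.414 in high and 0.372, 0.727 and 0.702 in low volume. In both genes the volumes overlapped. Whether the same reads feed Gm42418 and the 2 introns was not tested.

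By input, the smallest p were those of Ctnnd2, the neural delta-catenin gene, Akap6, a kinase anchor, and Hs3st5, a heparan sulfate sulfotransferase. The slopes per doubling of RNA were 0.36, 0.45 and 0.67 on the log2 scale, with an edgeR adjusted p of 0.728 for each. In the 10 and 30 ng libraries alone they were 0.17, 0.28 and 0.08. Hs3st5 had 24 and 25 tags in the 3 ng libraries and 179 to 229 in the other four, which hold more tags in all. The 1 intron that DESeq2 called by input, with 59 of 32242 features called (0.183%), lay in the exocyst gene Exoc4. By the ratio to exons the smallest p were those of Camk1d (1.22), Kcnq3 (-3.69) and Il1rapl1 (1.76), each with a limma adjusted p of 0.781. When any 1 of the 10 and 30 ng libraries was left out, Kcnq3 (limma adjusted p from 6.13e-10 to 0.0140) and Il1rapl1 (from 0.00131 to 0.0113) passed the threshold, and Camk1d did so without the high-volume 10 ng library (0.0494). The mean exon RPKM of each of these 3 genes was under 1. In the high-volume 3 ng library the exon RPKM was 0.213 for Camk1d and 0.113 for Il1rapl1, and in the low-volume 3 ng library 0.535 and 1.32. For Kcnq3 it was 0 in the 3 and 10 ng low-volume libraries. Camk1d and Il1rapl1 had a mean of 50 or more exon tags, and Kcnq3 had fewer. With a pseudocount of 2 the differences were 1.20 for Camk1d, 1.71 for Il1rapl1 and -2.42 for Kcnq3.

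Long introns were detected less completely in the 3 ng libraries, which were also the shallowest of each volume. In the 3 ng libraries 399 long introns (25.9%) had no tag in high volume and 457 (29.7%) had none in low volume, against 87 to 115 (5.65 to 7.47%) at 10 and 30 ng. Thinned to the total tags of the shallowest library, 1140 and 1078 introns had a tag at 3 ng and 1396 to 1425 at 10 and 30 ng. Only total tags were matched in this way. Of the 702 introns with 50 or more tags in each of the other four libraries, 8 had no tag in the high-volume and 29 in the low-volume library of 3 ng, and 2 had none in either. The intron with most tags among them was that of Cntn4 (chr6:106181831-106344738), with 276 and 202 tags in high volume at 10 and 30 ng, 235 and 339 in low volume, 174 in the high-volume 3 ng library and 0 in the low-volume one. An intron of Lingo2 had 133 and 0 tags in the 3 ng libraries and 97 to 188 in the other four. These examples were chosen after their values were seen.

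The spread between the volumes at each input showed the same. For 321 long introns with a mean of 100 to 300 tags the SD of the log2 difference between volumes was 1.82 at 3 ng, 0.40 at 10 ng and 0.34 at 30 ng. Genes of the same counts had 1.87, 0.48 and 0.42. Among 474 introns of 30 to 100 tags it was 3.18, 0.71 and 0.50, and among 131 of 300 to 1000 tags 1.04, 0.28 and 0.24. Genes of those counts had 3.32, 0.77 and 0.59, and 0.91, 0.34 and 0.33. At 3 ng the SD of long introns was several times that at 30 ng in each class of counts, and so was that of genes.

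**Figure D5:**
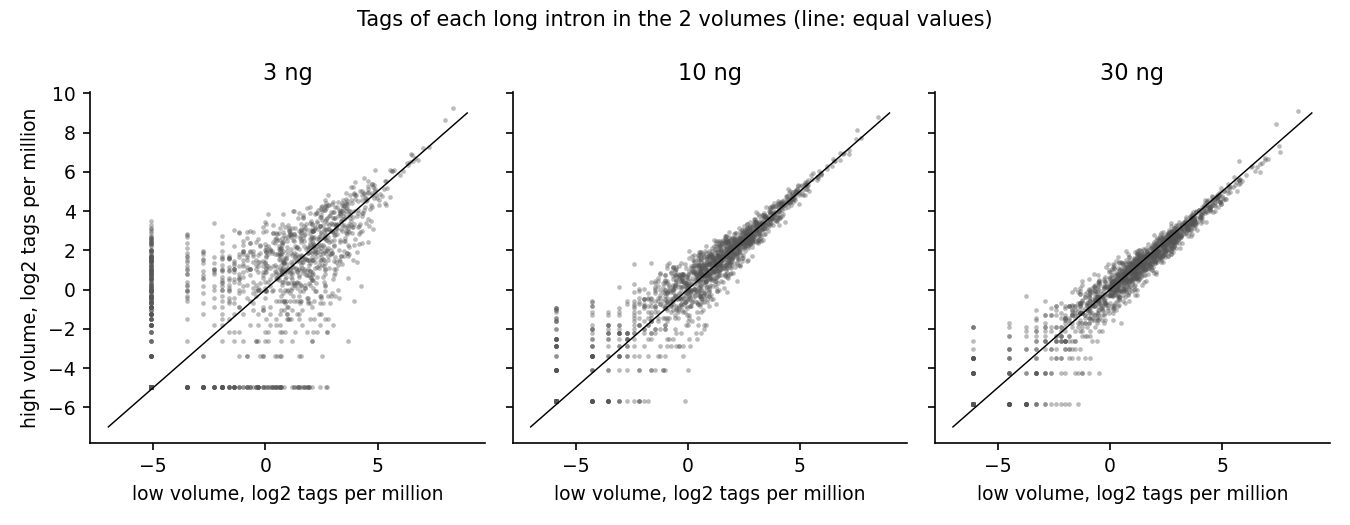
Each point is 1 of 1539 long introns, with log2 tags scaled to library depth (pseudocount 0.5 tags) in the low-volume library across and the high-volume library up, at 3, 10 and 30 ng, and the line marks equal values. At 3 ng the points spread widely and line up along both lower edges, where 457 and 399 introns have 0 tags, and at 10 and 30 ng they lie close to the line.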

How the data were processed

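The data are poly(A)-primed cDNA libraries. The submitters' processing notes list TopHat2 2.0.8, Bowtie2 2.1.0, CASAVA 1.8 and the genome build GRCm38.p1, without their roles. For the counting program and for multiply matching reads nothing was found in labels or headers. The deposited files give a whole-number tag count and the authors' RPKM for each transcript, exon and intron. All rows of 1 interval held equal counts. Whether strand was used is not stated there, so antisense and overlapping genes may share tags.

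Intron densities were computed from the counts and the library totals behind the RPKM. GENCODE M21 (GRCm38) named 89664 of 93615 transcripts, and a gene's exon value is that of its transcript with most tags. Genes and exon-free introns were tested in 1 table with edgeR 4.0.16 (TMM factors from genes, filterByExpr, volume and centred log2 input, Benjamini-Hochberg threshold 0.05), with DESeq2 1.42.0 as an alternative. Log2 ratios of intron to exon tags (pseudocount 0.5, mean of 10 or more tags) were tested with limma 3.58.1. Single values per library had two-sided exact permutation or sign-flip tests. The scripts were tested on simulated data. Sequence features inside introns had been planned and were not analysed here, and exon junctions from M21 transcripts were used in their place. Named introns were the 10 of highest density, the 10 of highest ratio (50 or more tags, exon RPKM of 1 or more), the 10 of lowest ratio (exon RPKM of 10 or more), the 5 longest, the 3 of smallest p where none was called, and the leading 2 genes of each list. Genes named Gm plus digits or ending in Rik were left out of these. Members and gene lists were chosen with earlier results of these data known. Tags carry no molecular identifiers, and the number of tags limits precision through counting error only as far as reads are independent.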

Additional observations from a re-analysis of the deposited data

How the results depend on the processing

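With 5 libraries a sign-flip test cannot go below 0.0625 and with 4 not below 0.125, so the single-library omissions show direction only. Leaving out 1 library at a time gave 0.21 to 0.42 for long minus shorter introns, 0.0448 to 0.0575 for upstream minus downstream introns, and -0.0049 to 0.12 percentage points for the tag share by volume, the negative value without low-volume replicate 2 (3 ng). The median ratio by volume ran from 0.0173 to 0.379 on the log2 scale, the low value without the same library. Long minus shorter introns fell to 0.29 (exact p = 0.0625) with overlap judged on the same strand only, to 0.15 (p = 0.1875) with a pseudocount of 2, to 0.0855 (p = 0.125) in the 10 and 30 ng libraries alone and to 0.0199 (p = 0.5) as pooled density without M21 exons, and turned to -0.45 with a minimum of 50 tags. Upstream minus downstream was 0.10 without M21 exons (p = 0.0625), 0.10 at 100 kb and more (p = 0.09375) and 0.0521 in the 10 and 30 ng libraries (exact p = 0.125). Long introns called by volume numbered 2 of 1495 with no filter and 2 of 1256 with DESeq2, against 0 of 1256. In the 10 and 30 ng libraries they numbered 2 of 1292. These settings called 0.126%, 0.431% and 0.481% of all features. By input DESeq2 called 1 of 1256 long introns and 0.183% of all features. Of 1214 long introns among 15308 introns tested by the ratio, 0 to 62 were called when 1 library was left out. Without high-volume replicate 1, 6 long introns were among 13 introns called in all, and without high-volume replicate 3, 56 among 104. Without low-volume replicate 1 it was 62 among 121, and without low-volume replicate 3, 36 among 59. These are the 10 and 30 ng libraries. Leaving out either 3 ng library gave 0, and the cause was not tested. The filter on exon RPKM, the pooled densities, the pairs of 50 tags, the share without the 2 leading introns (0.0349 percentage points) and the 10 and 30 ng libraries for values per library were added after seeing the data.

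Libraries of equal input share a replicate number but deviated together only weakly (r = 0.07, 0.07 and 0.08 at 3, 10 and 30 ng over 1214 introns, each highest with its own number). With the replicate block 0 long introns were called by volume and 0 by the ratio. The tag share differed by 0.0713 with an exact p of 0.5 and the median ratio by 0.22 with 0.25, the smallest 3 pairs can give.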
